A study of Mus musculus with 3 samples.

Results

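The mitochondrial genome of the mouse carries 37 of the 52636 genes in the count table of sorted hippocampal neurons. The 37 were taken as all genes placed on chromosome M, and GENCODE vM21 names 13 of them as mRNAs, 2 as rRNAs and 22 as tRNAs. Annotation alone defined them, not their counts, although earlier results of these data were known when they were chosen. RNA-Seq was performed on live tdTomato-positive cells that had been dissociated with papain from whole hippocampi of male C57BL/6J mice, genotype Camk2a-Cre +/-, Ai14 +/-, at postnatal day 28-32. Cre in this line is under the Camk2a promoter and is described as active in part of the excitatory neurons of the forebrain, in the hippocampus those of CA1, and Ai14 turns on tdTomato in cells with Cre. All 3 biological replicates belong to this single condition, each pooled from 2 to 4 mice, so levels and their spread are given here and no treatment contrast exists. Libraries of poly(A) RNA were read from both ends in 150 bp reads, and the deposited values are raw counts per gene.

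Mitochondrial DNA is transcribed as long precursors of both strands. The tRNAs that punctuate the mRNAs and rRNAs are cut out, and most of the freed mRNAs receive a short poly(A) tail. The mRNAs encode core subunits of respiratory complexes I, III and IV and of ATP synthase, the machinery that supplies most of the ATP of a neuron, while every other protein of the organelle is encoded in the nucleus. Fragments of mitochondrial DNA have also been inserted into nuclear chromosomes during evolution, and these copies can still be near identical in sequence.

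The libraries held 15833075 to 48159841 assigned counts, a 3.04-fold range, with replicate 1 the deepest. CA1 pyramidal markers had a median of 75.9 ± 12.3 TPM (counts per gene length scaled to the same total in every library, SD, n = 3), dentate granule markers 47.8 ± 12.5, oligodendrocyte markers 29.2 ± 9.36 and astrocyte markers 5.16 ± 2.09. Gm23935, a miRNA gene of the annotation, took 32.7% to 48.3% of all TPM and lowers the TPM of every other gene in a library by the same factor. CPM, counts scaled to the same library total without regard to length, and CPM per kb of gene length are therefore used for most values below.

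A block of 7 pseudogenes on chromosome 1 repeats part of the mitochondrial genome almost letter for letter, and the mRNAs inside the repeated part are those with low counts in the results that follow. The block runs from 24611535 to 24616197 of GRCm38 on the minus strand, and it corresponds to positions 6390 to 11042 of chromosome M. Of the 7 aligned stretches, 6 had 0 mismatches and 0 gaps. The exception was Gm29216, with 1 mismatch to mt-Co1 over 483 aligned bases (A1066T, counted from 1 at the first base of mt-Co1, with the base of mt-Co1 first). The order and spacing of the 7 pseudogenes matched those of their mitochondrial counterparts to within 1 base. By position, the block wholly spans 11 of the 37 genes. They are 6 mRNAs (mt-Co2, mt-Atp8, mt-Atp6, mt-Co3, mt-Nd3 and mt-Nd4l) and 5 tRNAs (mt-Ts1, mt-Td, mt-Tk, mt-Tg and mt-Tr). The block also spans the last 483 bases of mt-Co1 and the first 876 bases of mt-Nd4. Below, the 6 mRNAs are called the copied mRNAs and the remaining 7 the other mRNAs. The block was found by sequence, and the name follows the position of a gene in it. For mt-Atp8 a copy was found only of the last 43 bases, and mt-Co1 and mt-Nd4 count as other mRNAs although partly copied. The division uses no counts, but it was drawn after the counts had been seen.

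The first 120 bases of mt-Co3 and of its counterpart Gm28437 show what a read from this stretch looks like. They are printed in lower case throughout, since 0 of the 120 bases differ. mt-Co3 lies at chrM:8607-9390 on the plus strand, and the stretch of Gm28437 at chr1:24613852-24613971 on the minus strand. Sequences here and below are those of GENCODE vM21 transcripts (GRCm38), 5′ to 3′.
mt-Co3: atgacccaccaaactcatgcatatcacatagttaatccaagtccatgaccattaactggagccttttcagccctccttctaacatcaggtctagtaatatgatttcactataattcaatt
Gm28437: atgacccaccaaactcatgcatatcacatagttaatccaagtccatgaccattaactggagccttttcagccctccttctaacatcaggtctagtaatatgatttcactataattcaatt

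A second, more diverged group of copies lies on chromosome 2. Its longest member, Gm13340, aligned to all 1545 bases of mt-Co1 (chrM:5328-6872, plus strand) with 37 mismatches. The first 120 bases of both (chr2:22589528-22589647, minus strand, for Gm13340) are shown with their 3 differences in capitals, for contrast with the exact copy above.
mt-Co1: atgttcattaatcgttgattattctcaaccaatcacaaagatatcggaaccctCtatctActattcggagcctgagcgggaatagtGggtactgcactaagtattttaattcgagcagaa
Gm13340: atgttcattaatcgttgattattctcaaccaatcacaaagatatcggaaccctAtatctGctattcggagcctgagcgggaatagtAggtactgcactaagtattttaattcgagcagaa

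The sequence that each mitochondrial gene shares with nuclear transcripts was measured as the percentage of its words of 100 bases that also occur, on either strand, in a GENCODE vM21 transcript of another chromosome. This share was 99.9% for mt-Co3, 99.5% for mt-Co2, 99.5% for mt-Atp6, 98.5% for mt-Nd4l and 97.6% for mt-Nd3. It was 60.8% for mt-Nd4 and 30.8% for mt-Co1, which lie partly in the block. It was 3.19% for mt-Nd2 and 0% for mt-Nd1, mt-Nd5, mt-Nd6, mt-Cytb, mt-Rnr1 and mt-Rnr2. The search covers transcripts only, since no genome sequence was used. mt-Atp8 had a share of 0% for 100 bases and 7.47% for 31 bases. Its last 43 bases aligned to Gm10925 with 0 mismatches. The rest falls opposite the 233 bases between Gm28661 and Gm10925, which equal the mitochondrial stretch in length and were not searched. In all, 14 of the 37 genes shared at least 1 word of 31 bases with 23 nuclear genes.

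Genes of the mitochondrial genome took 10.6%, 7.09% and 9.14% of assigned counts in replicates 1, 2 and 3. Replicate 1 was thus highest and replicate 2 lowest. In bulk libraries, fewer cells of a type and less RNA per cell cannot be told apart, and neither can more mitochondria per cell and more RNA per mitochondrion. Of 8 marker lists, each of which is lowest in 1 of the 3 replicates, 3 had their lowest summed CPM in replicate 2. The sum was 410, 275 and 498 CPM for 7 astrocyte markers, 847, 762 and 769 for 5 dentate granule markers and 114, 91.8 and 115 for 5 interneuron markers, of which 6, 5 and 2 passed 1 CPM in all replicates and 0 were at 0 in all. The remaining lists were lowest in replicate 1 or 3. The 3 endothelial markers had 4.22, 8.21 and 30.8 CPM and were highest in replicate 3. Highest in replicate 2 were the 8 CA1 pyramidal markers, with 1347, 1428 and 1225 CPM, and the 6 oligodendrocyte markers, with 798, 1025 and 772. The part of these cell types in the mitochondrial share was not tested. Of the 37 genes, 29 passed a minimum of 1 CPM in all 3 replicates (13 of 13 mRNAs, 2 of 2 rRNAs and 14 of 22 tRNAs), against 30.3% of all genes in the table. Among the 20 genes with the highest mean CPM, 9 were mitochondrial, and mt-Co1 ranked 2.

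**Figure D1:**
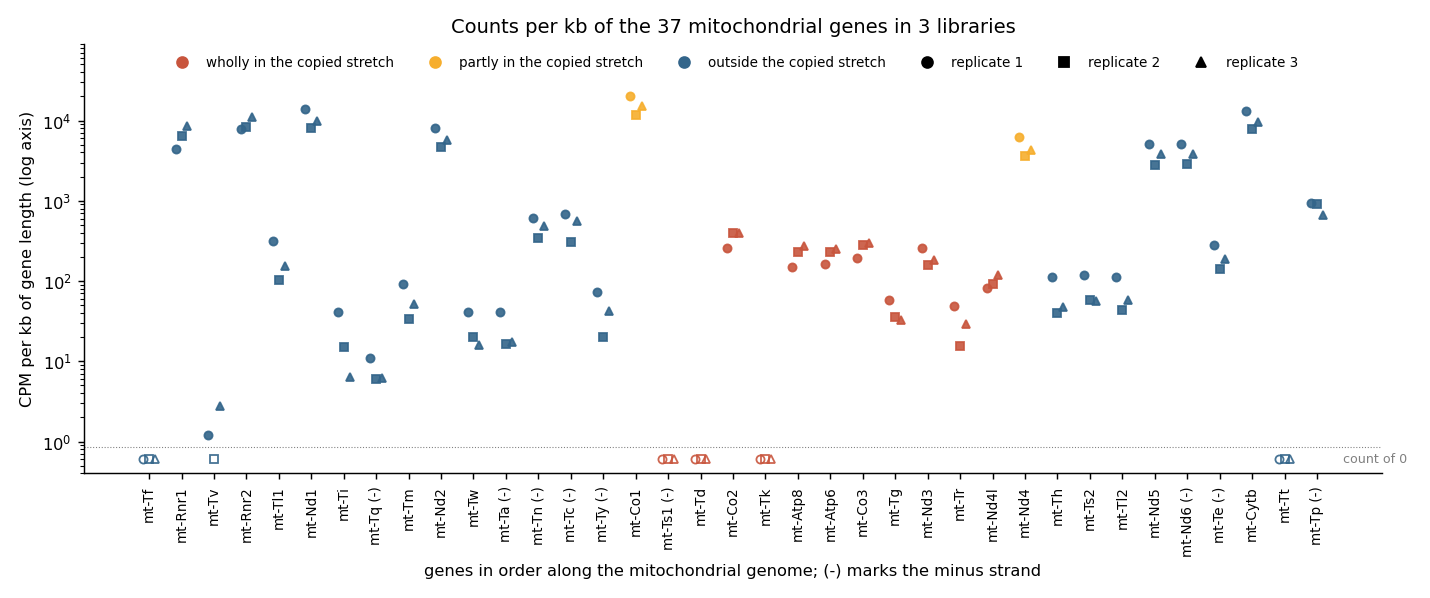
CPM per kb on a log axis for the 37 mitochondrial genes in genome order, with 1 point for each of the 3 replicates and open symbols for a count of 0. The copied mRNAs in red lie between 81.4 and 397 CPM per kb, while the mRNAs on both sides of them lie above 2781.

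The mRNAs took 83.9%, 72.9% and 71.7% of the mitochondrial counts in replicates 1, 2 and 3. The rRNAs took 15.9%, 26.9% and 28.1%, and the tRNAs 0.231%, 0.203% and 0.181%. Replicate 1 therefore held more mRNA and less rRNA than replicates 2 and 3. CT010467.1, an rRNA gene of chromosome 17, took 1.21%, 3.20% and 3.50% of all assigned counts and was likewise lowest in replicate 1. Its part in this split was not tested.

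Complex I, which takes electrons from NADH, has 7 of its subunits encoded here, and among the 13 mRNAs they include mt-Nd1, next below mt-Co1, and mt-Nd4l, the lowest. mt-Nd1 (chrM:2751-3707) had 13854, 7990 and 9934 CPM per kb in replicates 1, 2 and 3, and mt-Nd2 (chrM:3914-4951) had 7979, 4661 and 5692. mt-Nd4 (chrM:10167-11544) had 6167, 3626 and 4355, and mt-Nd5 (chrM:11742-13565) had 5169, 2781 and 3846. These 4 subunits form part of the proton-pumping membrane arm of the complex. The remaining subunits of that arm on the plus strand had far fewer counts. mt-Nd3 (chrM:9459-9806) had 256, 159 and 181 CPM per kb, and mt-Nd4l (chrM:9877-10173) had 81.4, 93.2 and 119.7, the lowest mean of the 13 mRNAs. Both are copied mRNAs.

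mt-Nd6 is the only mRNA on the minus strand, at chrM:13552-14070, and its last 14 bases overlap the end of mt-Nd5 on the plus strand. It had 5129, 2893 and 3804 CPM per kb in replicates 1, 2 and 3. Divided by the value of mt-Nd5 in the same library, this was 0.992, 1.04 and 0.989, so the level of mt-Nd6 could not be distinguished from that of its antisense neighbour. By contrast, mt-Cytb, the next mRNA on the plus strand, had 2.59 ± 0.0887 times the CPM per kb of mt-Nd6 (SD, n = 3). The paper lists the TruSeq RNA library prep kit and does not describe the libraries as stranded. Whether strand was used in counting is not given in the sources used here. Unless both kept strand, reads from mt-Nd6 and from plus-strand RNA across the same bases cannot be told apart.

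mt-Cytb (chrM:14145-15288) encodes cytochrome b, the single subunit of complex III made in the organelle, and had 13082, 7798 and 9643 CPM per kb in replicates 1, 2 and 3. Complex IV, cytochrome c oxidase, has 3 mitochondrial subunits that form its catalytic core, and their counts lay far apart. mt-Co1 had 20177, 11608 and 15104 CPM per kb, the highest of all 37 genes in each replicate. It alone took 29.4%, 25.3% and 25.5% of the mitochondrial counts. mt-Co2 (chrM:7013-7696) had 261, 393 and 397 CPM per kb, and mt-Co3 had 193, 280 and 298. The replicates of mt-Co1 did not overlap those of mt-Co2 or mt-Co3.

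The ATP synthase subunits mt-Atp8 (chrM:7766-7969) and mt-Atp6 (chrM:7927-8607) share 43 bases on the same strand. mt-Atp8 had 151, 229 and 272 CPM per kb in replicates 1, 2 and 3, and mt-Atp6 had 163, 233 and 253. Their ranges overlapped almost completely.

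The copied mRNAs as a group held 0.658%, 1.5% and 1.27% of the counts of the 13 mRNAs. Their median was 178, 231 and 262 CPM per kb in replicates 1, 2 and 3, against 7979, 4661 and 5692 for the other mRNAs. The groups did not overlap in any replicate. The lowest of the other mRNAs still had 19.7, 7.08 and 9.58 times the CPM per kb of the highest copied mRNA. Among the other mRNAs the highest had 4.03 ± 0.129 times the level of the lowest, and among the copied mRNAs 3.58 ± 0.555 times (SD, n = 3). Over all 13 mRNAs, the log2 ratio of highest to lowest was 7.30 ± 0.57, and 2.01 without the copied mRNAs. GC content spanned 31.9% to 41.1% in the copied mRNAs, against 34.1% to 39.9% in the other mRNAs, and length 204 to 784 bases against 519 to 1824.

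**Figure D2:**
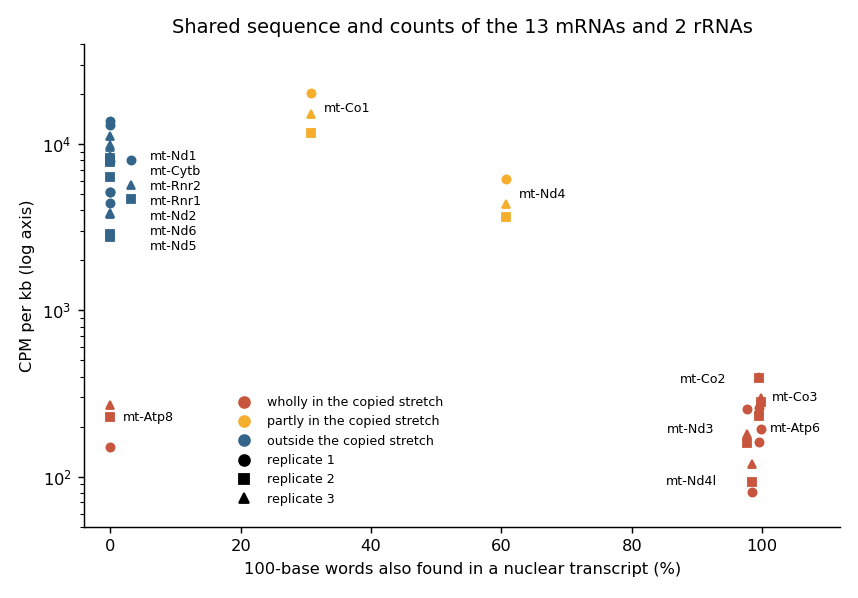
CPM per kb on a log axis against the percentage of 100-base words found in a nuclear transcript, for the 13 mRNAs and 2 rRNAs in 3 replicates. The 5 mRNAs with 97.6% to 99.9% shared words lie below all others except mt-Atp8, which shared 0% of these words and of which only the last 43 bases aligned to an annotated pseudogene of chromosome 1.

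The pseudogenes of the block had counts of the same order as the copied mRNAs, far below those of mt-Co1 and mt-Nd4. mt-Co3 had 7278, 5640 and 3696 counts in replicates 1, 2 and 3, and Gm28437 had 6202, 4118 and 2679. mt-Atp6 had 5338, 4069 and 2731 counts, and Gm10925 had 6291, 4313 and 2810. mt-Co2 had 1.60 ± 0.104 times the counts of Gm28661 (SD, n = 3). The ratio was 3.43 ± 0.705 for mt-Nd3 over Gm28438 and 2.25 ± 0.431 for mt-Nd4l over Gm10222. For the genes that lie partly in the block it was far larger, with 85.5 ± 38.0 for mt-Nd4 over Gm28439 and 187 ± 84.7 for mt-Co1 over Gm29216. A read of 150 bases from an exact copy carries nothing that tells the locations apart. How reads with more than 1 location were counted is not given in the sources used here, and the part of shared sequence in the low counts was not tested, since no reads were used. When the counts of each pseudogene were added to its mitochondrial gene, the highest sum among the copied mRNAs was 435, 624 and 642 CPM per kb. The lowest of the other mRNAs still had 11.8, 4.46 and 5.92 times as much. When the counts of mt-Co1 and mt-Nd4 were divided only by the bases outside the block, mt-Nd4 had 12946 ± 3591 CPM per kb (SD, n = 3) and moved to the second place in the order of mRNAs, after mt-Co1 with 22738 ± 6268.

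**Figure D3:**
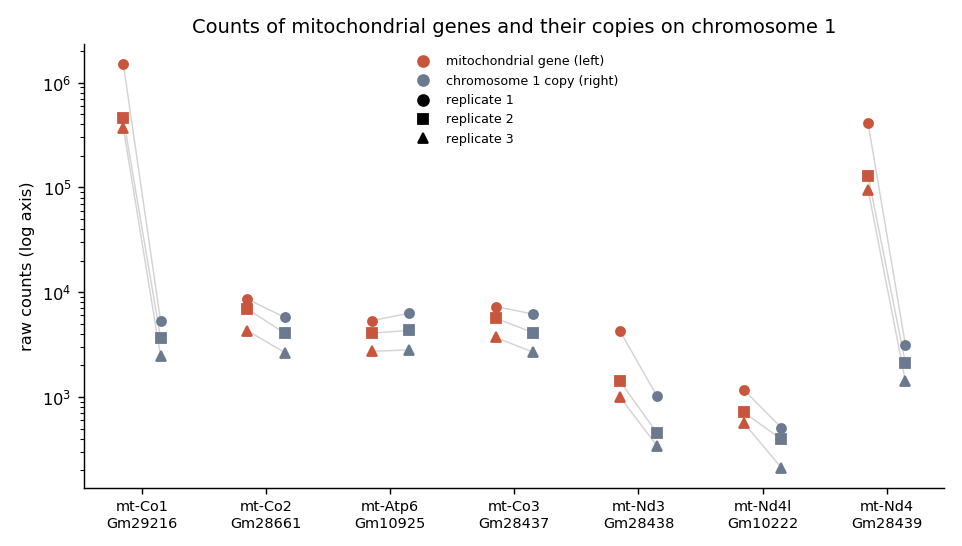
Raw counts on a log axis of 7 mitochondrial genes (red, left) and of their chromosome 1 counterparts (grey, right) in each replicate, joined by lines. The ratio is 0.921 on average for mt-Atp6 and 1.31 for mt-Co3, while mt-Co1 and mt-Nd4 lie far above their counterparts.

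The composition of the other mRNAs was steady from library to library once the total was taken out. As a share of the summed counts per kb of the 13 mRNAs, mt-Co1 held 27.8%, 27.2% and 28.0% in replicates 1, 2 and 3. mt-Nd1 held 18.7% ± 0.319, mt-Cytb 18.05% ± 0.180, mt-Nd2 10.8% ± 0.225 and mt-Nd4 8.35% ± 0.234 (SD, n = 3). Each of these lay above the next in the order with no overlap of replicates. mt-Nd6 and mt-Nd5 came next with 6.96% ± 0.168 and 6.92% ± 0.357 and overlapped. The copied mRNAs followed with means of 0.184% to 0.672%. The replicates of mt-Co2, mt-Co3, mt-Atp8 and mt-Atp6 each overlapped those of the next gene, whereas those of mt-Nd3 all lay above mt-Nd4l. In all, 7 of the 12 neighbouring pairs did not overlap. Compared within each library, 9 of the 12 pairs kept 1 order in all 3, including mt-Co2 above mt-Co3 and mt-Co3 above mt-Atp8. The exceptions were mt-Nd6 and mt-Nd5, mt-Atp8 and mt-Atp6, and mt-Atp6 and mt-Nd3.

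Between replicates, the mitochondrial genes did not share a single profile. The 7 other mRNAs had 1.5 to 1.56 times the CPM in replicate 1 relative to the mean of replicates 2 and 3. For 5 of the 6 copied mRNAs this ratio was below 1, from 0.603 for mt-Atp8 to 0.765 for mt-Nd4l. mt-Nd3 was the exception, with 89.1, 55.2 and 63.0 CPM in replicates 1, 2 and 3 and a ratio of 1.51, although its level was that of the copied mRNAs. The pseudogenes of chromosome 1 had ratios of 0.734 to 0.782, except Gm28438, the counterpart of mt-Nd3, with 1.07. Outside the block, mt-Rnr1 and mt-Rnr2 had ratios of 0.598 and 0.821, below 1 like those of most copied mRNAs. With 3 libraries of 1 condition, these profiles describe the libraries and carry no test.

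**Figure D4:**
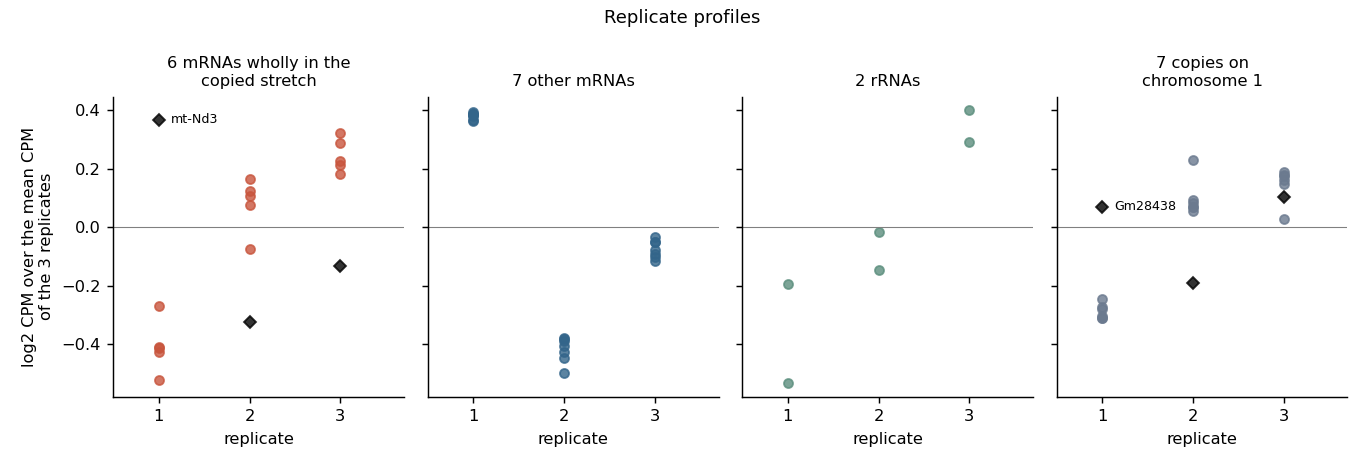
Log2 of the CPM in each replicate over the mean of the 3 replicates, for the copied mRNAs, the other mRNAs, the rRNAs and the pseudogenes of chromosome 1. All 7 other mRNAs are highest in replicate 1, and black diamonds mark mt-Nd3 and Gm28438.

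The spread of the mitochondrial genes exceeded that of most genes. The SD of log2 normalized counts over the 3 replicates had a median of 0.42 over the 29 mitochondrial genes above 1 CPM, against 0.14 over the 15955 genes of the table that passed the same filter. Without replicate 1 these medians were 0.26 and 0.13. The upper quartile over replicates 1 to 3 of those genes was 0.25, and the smallest value among the 29 was 0.26, for mt-Rnr2. The median was 0.33 for the copied mRNAs, 0.41 for the other mRNAs and 0.70 for the 14 tRNAs. Since these genes share 1 precursor system and the same libraries, they do not count as separate observations of this spread.

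The rRNAs are the structural RNAs of the mitochondrial ribosome. mt-Rnr1, the 12S rRNA at chrM:70-1024, had 4430, 6349 and 8470 CPM per kb in replicates 1, 2 and 3. mt-Rnr2, the 16S rRNA at chrM:1094-2675, had 7937, 8211 and 11116. Both were highest in replicate 3, unlike every mRNA outside the copied group. Relative to mt-Co1 in the same library, mt-Rnr1 had 0.220, 0.547 and 0.561 times and mt-Rnr2 0.393, 0.707 and 0.736 times the CPM per kb. In these poly(A)-selected libraries, neither rRNA reached the level of mt-Co1.

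The 22 tRNA genes are 59 to 75 bases long, shorter than a single read, and lie end to end with other genes, so a read of 150 bases that covers a whole tRNA gene extends past it. Their counts summed to 11792, 3691 and 2616 in replicates 1, 2 and 3, and mt-Tp, mt-Tc and mt-Tn held 61.9%, 73.6% and 70.2% of them. mt-Tp, the proline tRNA at chrM:15356-15422, had 3054, 1558 and 697 counts, and it is the last annotated gene before the control region. mt-Tc and mt-Tn, the cysteine and asparagine tRNAs at chrM:5192-5257 and chrM:5089-5159, had 45.0, 20.5 and 37.1 CPM and 43.2, 24.7 and 34.8 CPM. They flank a gap of 32 bases in the annotation, where background knowledge places the origin of light-strand replication. These 3 genes are among the 8 tRNAs annotated on the minus strand, which together held 78.9% ± 4.88 of the tRNA counts (SD, n = 3). As for mt-Nd6, these counts may include reads from plus-strand RNA across the same bases, and this was not tested. Next came mt-Te, also on the minus strand beside mt-Nd6, with 14.1 CPM on average, and mt-Tl1, between mt-Rnr2 and mt-Nd1, with 14.3.

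The tRNAs at the other end of the range had no counts. mt-Tf, mt-Ts1, mt-Td, mt-Tk and mt-Tt were at 0 in all 3 replicates, which allows up to 3 counts in each, or 0.0623 to 0.189 CPM. This limit covers counting error only. Of these 5, mt-Ts1, mt-Td and mt-Tk lie by position in the stretch copied on chromosome 1. By contrast, mt-Tg and mt-Tr, in the same stretch, had means of 2.87 and 2.10 CPM. Each of these tRNAs of the stretch shared 0 words of 31 bases with nuclear transcripts. The bases between the pseudogenes were not searched, so whether the tRNAs are copied there is not known. mt-Tv had 4, 0 and 3 counts. The remaining tRNAs below mt-Te had means up to 5.05 CPM, for mt-Tl2. Apart from mt-Tp, mt-Tc, mt-Tn and mt-Tf, at the ends of the map or beside the 32-base gap, no tRNA had more than 5 unannotated bases on either side. The 14 tRNAs that passed 1 CPM were all highest in replicate 1. The sequences of the 3 highest and of the 3 at 0 within the copied stretch are shown as encoded, with the anticodon in capitals.
mt-Tp: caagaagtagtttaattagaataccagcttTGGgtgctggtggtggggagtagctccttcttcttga
mt-Tc: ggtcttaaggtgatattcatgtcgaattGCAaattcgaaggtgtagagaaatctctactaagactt
mt-Tn: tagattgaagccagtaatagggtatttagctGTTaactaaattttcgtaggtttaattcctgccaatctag
mt-Ts1: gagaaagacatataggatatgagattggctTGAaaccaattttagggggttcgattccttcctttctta
mt-Td: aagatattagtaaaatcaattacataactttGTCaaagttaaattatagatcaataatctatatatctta
mt-Tk: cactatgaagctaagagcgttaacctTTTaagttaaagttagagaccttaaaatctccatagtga

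Polyadenylation has a coding role in this genome, since the tail supplies the missing letters of a stop codon. Of the 13 mRNAs, 10 end in a complete TAA or TAG and 3 end in a single T, namely mt-Nd4, mt-Co3 and mt-Cytb. The last 30 bases of these 3 are shown beside those of mt-Co1 and mt-Nd1, which end in complete stop codons, with the stop letters in capitals.
mt-Nd4: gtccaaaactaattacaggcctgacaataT
mt-Co3: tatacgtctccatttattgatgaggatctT
mt-Cytb: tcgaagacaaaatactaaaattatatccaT
mt-Co1: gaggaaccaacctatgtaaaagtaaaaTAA
mt-Nd1: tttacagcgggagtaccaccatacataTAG
The mRNAs that end in a single T had both high and low counts. mt-Cytb and mt-Nd4 averaged 10175 and 4716 CPM per kb, and mt-Co3 averaged 257.

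Respiratory complexes combine mitochondrial and nuclear subunits, and the median TPM of the mitochondrial ones was higher in each of the 4 complexes compared and in each replicate. The 13 mitochondrial mRNAs had a median of 7452 ± 3328 TPM and the 71 nuclear subunits of complexes I, III and IV and of ATP synthase 59.7 ± 10.2 TPM (SD, n = 3). As log2(TPM + 1), the difference between these medians was 7.25, 6.34 and 6.98 in replicates 1, 2 and 3. It was 7.51 for the other mRNAs and 2.76 for the copied mRNAs. For complex I, the 7 mitochondrial mRNAs lay 7.21 ± 0.46 above the 36 nuclear subunits. For complex III, mt-Cytb lay 7.97 ± 0.33 above 9 nuclear subunits. For complex IV and ATP synthase, in which 4 of the 5 mitochondrial mRNAs are copied mRNAs, the differences were 2.91 ± 0.35 against 11 nuclear subunits and 2.81 ± 0.37 against 15. With CPM in place of TPM, the difference was 5.44 over all 13 mRNAs, 2.12 for complex IV and 0.82 for ATP synthase. With means of log2 values in place of medians it was 5.47 over all 13 mRNAs, 6.28 for complex I and 4.38 for complex IV. Of the 13 mRNAs, 9 had a mean TPM above that of Cox8a, the most abundant nuclear subunit with 419 ± 96.9 TPM. Single genes overlapped, as mt-Co3 had 416, 454 and 531 TPM in replicates 1, 2 and 3 and Cox8a 531, 372 and 354.

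**Figure D5:**
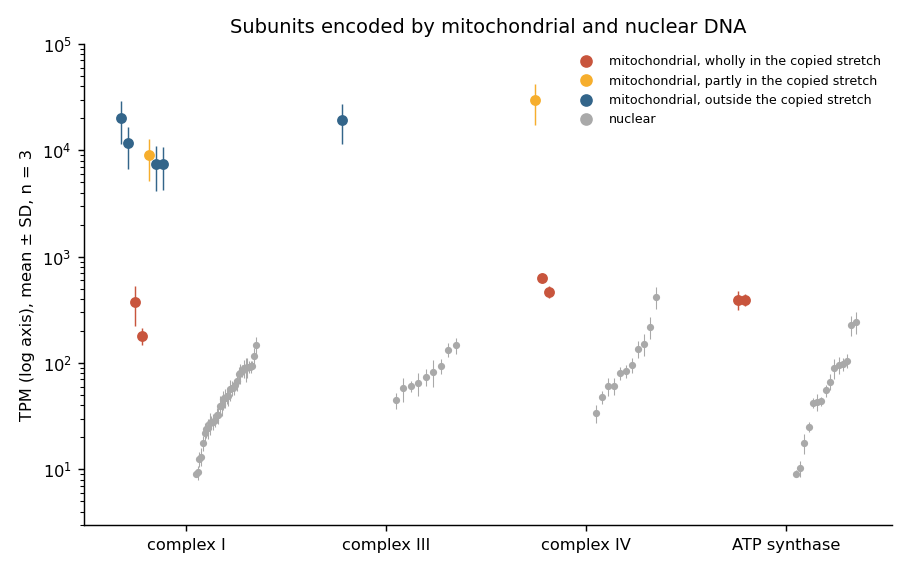
Mean TPM with its SD over 3 replicates on a log axis, for mitochondrial subunits (coloured, left) and nuclear subunits (grey, right) of complexes I, III and IV and of ATP synthase. The mitochondrial medians are 7567 TPM for complex I, 19354 for complex III, 636 for complex IV and 394 for ATP synthase.

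All 71 of these nuclear subunits and the 4 of complex II, which has no mitochondrial subunit, passed 1 CPM in all replicates. Ndufb9 was highest and Ndufab1 lowest among complex I genes, with 148 ± 29.2 and 8.94 ± 0.535 TPM. Cyc1, which encodes cytochrome c1, had 147 ± 24.8 TPM and Uqcrq 44.7 ± 7.72 TPM in complex III. Cox5a was lowest in complex IV with 33.7 ± 6.49 TPM. Atp5a1, the alpha subunit of ATP synthase, had 244 ± 57.3 TPM and Atp5l 9.09 ± 0.688 TPM. Sdha and Sdhc had 78.6 ± 17.1 and 20.7 ± 3.20 TPM in complex II.

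The nuclear genes that maintain and express mitochondrial DNA were detected throughout, with lower medians per list than the subunits. Single genes overlapped, as Fastk lay above Ndufab1 of complex I, which had 8.94 TPM. All 7 genes for replication, all 5 for transcription and all 18 for RNA processing and stability passed 1 CPM in all replicates. Their medians were 7.84 ± 1.95, 8.22 ± 0.686 and 14.1 ± 2.70 TPM (SD, n = 3). Polrmt, the mitochondrial RNA polymerase, had 15.4 ± 3.96 TPM, and Tfam, which packages mitochondrial DNA and starts its transcription, had 11.1 ± 1.58 TPM. Lrpprc and Slirp form a complex that stabilizes mitochondrial mRNAs. Lrpprc had 15.8 ± 2.14 TPM and Slirp 1.32 ± 0.388 TPM, from 122, 50 and 33 counts, the lowest of the processing list. Fastk, a mitochondrial RNA-binding protein, was its highest member with 35.6 ± 5.58 TPM. Polg, the DNA polymerase, was highest and Mgme1, a nuclease, lowest among replication genes, with 15.6 ± 2.68 and 1.27 ± 0.0914 TPM. Mrpl12, a ribosomal protein that also binds the polymerase, had 25.8 ± 5.64 TPM and Mterf1a, a termination factor, 2.79 ± 0.0989 TPM.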

How the data were processed

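The authors dissociated hippocampi with papain, sorted live tdTomato-positive cells, selected poly(A) RNA and made TruSeq libraries for 150 bp paired-end sequencing. The deposited values are raw counts per gene in 3 libraries with no normalization, and gene lengths in bp. The submitters' processing notes name STAR and featureCounts, with the build GRCm38 (mm10). Their versions, and the settings for strand, reads with several locations and reads or fragments, are not given in the sources used here. Assigned counts were 48159841, 25686630 and 15833075. Intervals and limits cover counting error only.

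CPM, TPM and size factors (median of ratios: 1.78, 0.963 and 0.592) were computed with Python 3.11.15, numpy 2.4.6 and pandas 2.3.3, and TMM factors with edgeR 4.0.16 in R 4.3.3. GENCODE vM21 named 52489 of 52636 genes and gave the sequences of all transcripts. Words of 31 and 100 bases of the 37 genes were searched on both strands, and alignments were local (biopython 1.88). The scripts were tested on simulated data. Replicate pairs differed by more than sampling noise (chi-square per degree of freedom of 10.8 to 49.1), so each counted as its own library. With 1 condition, there was no contrast between groups to test across genes. A sign-flip test over 3 replicates planned for mitochondrial against nuclear subunits is not given, since the genes were chosen with results known. Named genes were all 37 members by value or count, the highest and lowest member of each nuclear list, Lars2 and nuclear genes sharing sequence with chromosome M. Tfam, Polrmt, Lrpprc, Ndufa2 and Atp5k were named after their values were seen. Members, lists and the copied group were chosen with earlier results of these data known. Alternatives were the denominator, length, normalization, filter, pseudocount, unit and leaving out each replicate. Columns of other samples left out numbered 0.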

Additional observations from a re-analysis of the deposited data

How the results depend on the processing

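For 15 results, 90 alternative settings were computed. In 76 the value stayed within 1 SD of the replicates, in 14 it did not, and 0 changed its sign. For a count the limit was 1.5 times, and for a median SD it was 1 SD over its genes. Leaving out 1 of 3 replicates cannot move a mean by 1 SD, so those settings could not fail for means. The minimum of 1 CPM removed no nuclear subunit, so that setting changed nothing. Shares, counts, SDs and the log2 ratio of highest to lowest cannot be negative. A sign change was thus possible only for mitochondrial over nuclear subunits. Per kb in place of counts, tRNAs took 3.6% and minus-strand genes 8.06% of the mitochondrial total, against 0.205% and 2.42% as counts. Among mRNAs alone, mt-Nd6, the one annotated on the minus strand, took 2.97%. The log2 ratio of highest to lowest mRNA was 6.43 without mt-Nd6 and the overlapping pairs and 2.01 without the copied mRNAs. With the minimum set to 10 CPM, 18 mitochondrial genes passed, against 29, and 18.3% of all genes. The median SD over all genes was 0.37 with no filter on low counts. For mitochondrial over nuclear subunits, the difference was 5.47 with the mean of log2 values, 5.44 with CPM and 7.51 with the other mRNAs only. The mean gave 6.28 for complex I and 4.38 for complex IV, and CPM gave 2.12 for complex IV and 0.82 for ATP synthase. The cause of these shifts was not tested, beyond the division by length that makes short genes weigh more.

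Leaving out 1 replicate at a time gave a mitochondrial share of 8.12% to 9.87%. The median SD of the 29 genes was 0.26 without replicate 1 and 0.58 without replicate 3, against 0.42 with all 3. The number of neighbouring mRNAs with no overlap was 7 to 10. The alternatives that use the copied stretch were chosen after seeing the data. No paired analysis was possible because all samples belong to 1 group, so replicate numbers pair no samples between groups. Genes were set side by side within each library.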

Other observations

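Lars2, a nuclear gene for the mitochondrial leucyl-tRNA synthetase, took 0.510%, 1.25% and 1.31% of assigned counts in replicates 1, 2 and 3. It was lowest in replicate 1, as were mt-Rnr1, mt-Rnr2 and the nuclear genes CT010467.1 and Gm23935. The 9 transcripts of Lars2 shared 0 words of 31, 20 or 16 bases with any of the 37 mitochondrial genes.

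Gm13340 had the most counts among nuclear genes that share words with chromosome M, the pseudogenes of chromosome 1 included. It had 8384, 5684 and 3769 counts in replicates 1, 2 and 3. Its neighbour Gm13341 on chromosome 2, which aligned to mt-Co2 with 16 mismatches and 12 gap bases, had 2578, 1541 and 1039 counts, and Gm13339, which aligned to mt-Nd2 with 17 mismatches, had 641, 301 and 259. Gm4076 on chromosome 13, which aligned to mt-Nd5 with 45 mismatches, had 152, 75 and 98 counts. Gm11407 and Gm11410 on chromosome 4, which aligned to mt-Nd5 and mt-Cytb with 78 and 81 mismatches, had at most 8 counts in any replicate, and Gm11408, Gm20594, Gm11512 and Gm43743 at most 18.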
